A study of Homo sapiens with 19 samples.

Results

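OCI-LY10 is an established human lymphoma line of the activated B-cell-like subtype, which depends on signals from the B-cell receptor and MYD88 to NF-kB. The comparison described here sets 3 OCI-LY10 libraries labelled shEGR1#8, a short hairpin RNA designed against EGR1, against 3 libraries labelled as carrying a control hairpin. These 6 libraries are 6 of the 19 samples of the series, and 10451 of the 25365 genes in the OCI-LY10 table were tested, those with 1 FPKM or more in at least 3 of the 6. FPKM counts sequenced fragments per length of a gene and size of the library. Both groups were transduced with their hairpin and received 20 ng/ml doxycycline for 2 days, so the controls carry the vector, an induced hairpin and the drug as well. The same table holds 3 libraries labelled shEGR1#9, a second hairpin against EGR1, and the TMD8 and SUDHL2 tables hold 1 library each for control and shEGR1#8. TMD8 and SUDHL2 are lines of the same lymphoma subtype. Whether each line was a clone or a pool is not given in the sources used here, and nothing in the labels says that replicates were separate cultures, so the p-values reflect no more than how far these libraries scatter, and that scatter may be technical.

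EGR1 is a zinc finger transcription factor that growth factor, antigen receptor and stress signals switch on within minutes, before new proteins are made. It binds GC-rich sites near gene starts, induces among others its own corepressor NAB2, and shares these sites with the related factors EGR2 and EGR3. Type I interferon acts through a response element rich in GAAA and switches on antiviral effector genes such as those of the IFIT, OAS and MX families.

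No lower RNA level of the hairpin's target was seen in the libraries that carry its label. EGR1 stood at 8.57, 9.59 and 12.3 FPKM in the controls and 10.04, 11.4 and 20.5 in the hairpin libraries. The ranges of the groups overlapped, and replicate 3 was the highest in both. The log2 difference was 0.37 (95% interval −0.22 to 0.97, limma adjusted p = 0.459). The size of the EGR1 difference rested on single libraries, at 0.08 without shEGR1#8 replicate 3, 0.56 without replicate 1 and 0.19 with library weights, and it was above 0 in every setting tried. Libraries are named by their labels throughout (hairpin libraries for short). A table of RNA levels does not show the amount of EGR1 protein. Of 14 B-cell identity markers 0 were at 0 in all 6 libraries, and 13 reached 1 FPKM in some library, all but SDC1. They summed to 2925 to 3176 FPKM in the controls and 3638 to 4334 in the libraries labelled shEGR1#8, a list that includes CD74. Of the 13 tested, 3 lay above all controls, 9 overlapped and 1 lay below. The last was MS4A1, at 311, 334 and 324 FPKM in the controls and 310, 279 and 226 in the hairpin libraries. Of 22 T and NK cell markers 14 were at 0 in all 6 libraries. The highest of the others, the signalling chain CD247, read 14.4, 11.6 and 15.5 FPKM in the controls and 19.9, 21.9 and 25.8 in the hairpin libraries and was not called (limma adjusted p = 0.0695). The summed T and NK list took 36.6 to 41.3 and 51.4 to 62.7 FPKM, the 13 myeloid markers 0.674 to 1.17 and 1.38 to 1.72, the 12 fibroblast and epithelial markers 6.11 to 6.31 and 6.78 to 8.68, and the 12 erythroid and endothelial markers 4.67 to 5.68 and 4.14 to 5.82. Myeloid markers were at 0 throughout in 10 of 13 cases, fibroblast and epithelial markers in 7 of 12 and erythroid and endothelial markers in 10 of 12. Summed FPKM lay between 431993 and 445028 in the 6 libraries, and between 10319 and 10499 genes had 1 FPKM or more. In genes of very low level, 1 read was worth 0.29 to 0.60 log2 units more in the libraries labelled shEGR1#8 than in control replicate 1, against −0.19 and −0.17 in control replicates 2 and 3. A higher value means a shallower library, but only 23.55 to 33.44% of those genes fitted such a step, so relative depth is a rough estimate. The libraries labelled shEGR1#8 also varied more around their group mean (root mean square 0.175 to 0.213 log2 units) than the controls (0.128 to 0.145), and replicate 3 stood apart on the first principal component, at 27.19 against 5.779 and 2.062 for replicates 1 and 2 and −15.74 to −9.296 for the controls. The part of depth, of that library and of the marker levels in the results below was not tested.

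In all, 94 genes rose (0.899% of those tested) and 34 fell (0.325%) in the libraries labelled shEGR1#8, by limma at a Benjamini-Hochberg adjusted p under 0.05, which is what rose and fell mean below. Together these 128 genes are 1.22% of those tested. For each of the 128 genes the 3 hairpin libraries did not overlap the 3 controls. Such a gap was common in this comparison, where 17% of all tested genes had all 3 hairpin libraries above all controls and 10.7% had all 3 below. In limma 18.8% of all tested genes had an unadjusted p under 0.05. Most changes were modest. The median log2 difference was 0.68 among the risers and −0.59 among the fallers, against 0.03 over all tested genes, and 18 risers and 4 fallers changed 2-fold or more on the log2(FPKM + 1) scale. That scale makes changes of low genes look smaller. In RNA from whole cultures, fewer cells that express a gene and less of its RNA per cell cannot be told apart.

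**Figure D1:**
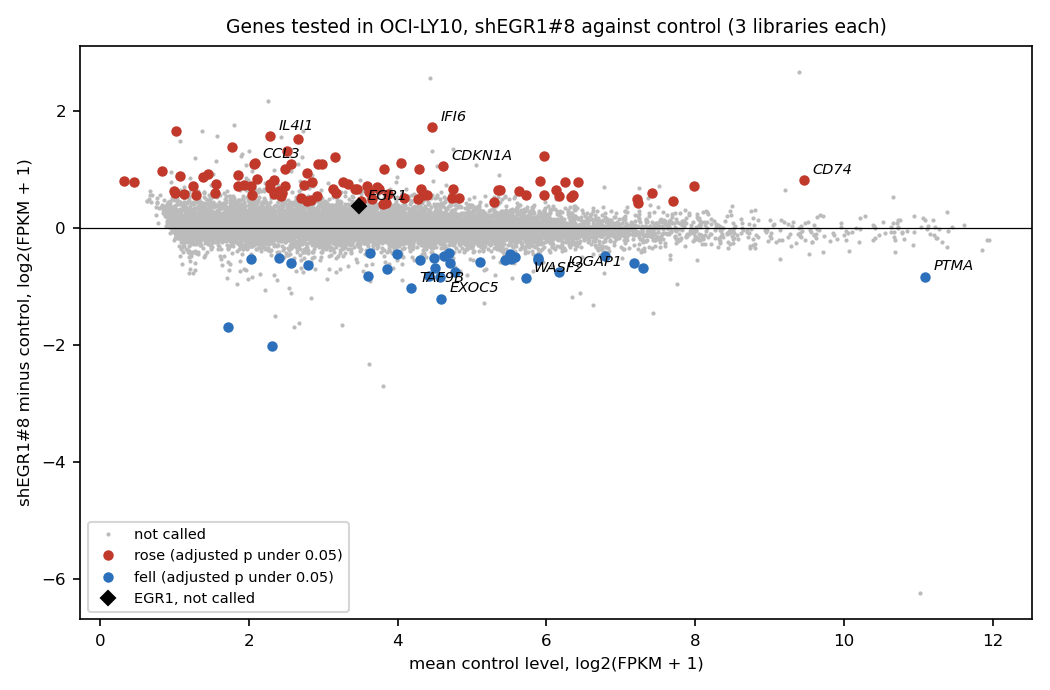
Each point is 1 of the 10451 tested genes, with the mean control level on the x axis and the difference of the libraries labelled shEGR1#8 from control on the y axis, both as log2(FPKM + 1). The 94 risers (red) spread over all levels up to CD74, the 34 fallers (blue) include the very abundant PTMA, and EGR1 (black diamond) lies at 0.37 and was not called.

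The number of calls moved with the libraries used. With control replicate 1, 2 or 3 left out, 4, 10 and 10 genes rose and 3, 3 and 3 fell. Without replicate 1, 2 or 3 of shEGR1#8, 45, 83 and 164 rose and 16, 54 and 76 fell. Of the 128 called genes 124 were also called without the outlying shEGR1#8 replicate 3. Called whichever library was left out were 5, CCL3, CDKN1A, IL4I1, PTMA and WASF2. No setting tried turned the direction of any of the 128 genes. Leaving out a library could not do so, since their groups do not overlap. The plot of leading genes shows the 12 largest changes each way library by library.

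**Figure D2:**
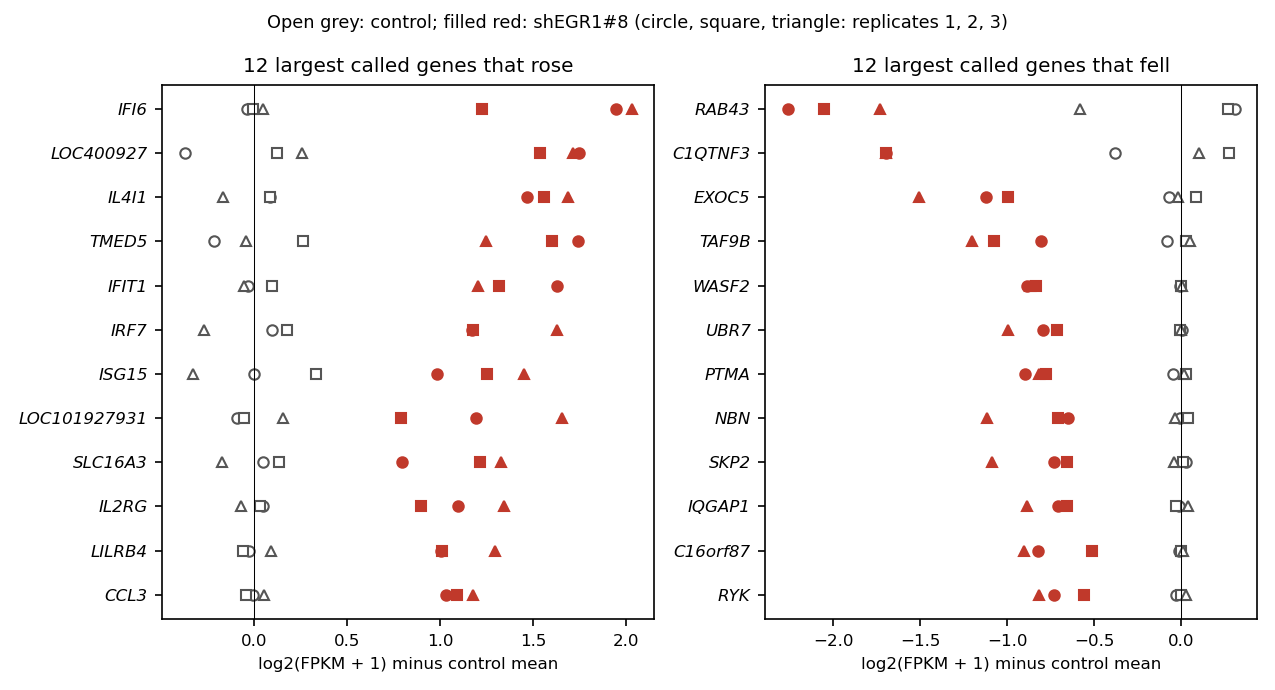
Each line holds 1 gene, the 12 genes with the largest rise and the 12 with the largest fall among called genes, and the x axis is the log2(FPKM + 1) of a library minus the mean of the 3 controls. Open grey symbols are controls and filled red symbols the libraries labelled shEGR1#8; for C1QTNF3 all 3 red symbols are libraries in which the gene is listed at 0. IFI6 and LOC101927931 show the widest spread among the red symbols of the risers, while those of WASF2 and PTMA nearly coincide.

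Of the genes next to EGR1 in its own circuit, NAB2 rose and none fell. NAB2, the corepressor that binds EGR factors and limits their activity, stood at 10.1, 9.75 and 9.54 FPKM in the controls and 16.4, 13.7 and 18.4 in the hairpin libraries. All 3 hairpin libraries lay above all controls (log2 difference 0.66, SE 0.108, limma adjusted p = 0.0393). EGR2 read 3.48, 3.25 and 3.75 FPKM in the controls and 4.39, 5.65 and 8.42 in the hairpin libraries, and EGR3 read 1.28, 1.44 and 1.53 FPKM in the controls and 1.64, 1.94 and 2.48 in the hairpin libraries. Both genes lay above all controls in each hairpin library, replicate 3 farthest, but did not pass (log2 differences 0.63 and 0.31, limma adjusted p 0.158 and 0.232). Of the 5 tested EGR and NAB genes 1 rose and 0 fell, with 3 above all controls and a median log2 difference of 0.37. Over all tested genes 0.899% rose and 17% lay above all controls. The promoter of NAB2 is shown because it is the called gene best known as an EGR1 target. The stretch is the 200 bases before the RefSeq start, on the plus strand of GRCh38.p14 (chr12:57088914-57089113), with the match to the EGR consensus GCGNGGGCG, searched on both strands, in capitals.
NAB2: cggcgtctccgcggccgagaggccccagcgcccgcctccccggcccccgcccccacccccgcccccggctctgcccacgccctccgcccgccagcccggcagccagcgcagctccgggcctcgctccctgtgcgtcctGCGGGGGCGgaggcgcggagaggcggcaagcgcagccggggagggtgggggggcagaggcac
This motif was found in 9.28% of 27305 RefSeq promoters of 300 bases (250 before and 50 after the start) and in 15.1% of the 7740 tested genes with a promoter in that table. It was found in 7 of 67 risers with a promoter (10.4%), which were BTG2, DUSP2, FILIP1L, HERPUD1, NAB2, NUB1 and TMC6, and in 8 of 26 such fallers (30.8%), which were ABHD17C, ATP1B3, C16orf87, EPB41L2, EXOC5, FYN, MAD2L2 and SCD. A match describes letters and is not a binding site.

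Among other genes of the immediate early response, which the same signals induce, NR4A3 and BTG2 rose, as did the phosphatases DUSP2 and DUSP5. NR4A3, an orphan nuclear receptor, read 2.00, 1.90 and 1.87 FPKM in the controls and 3.77, 3.29 and 3.31 in the hairpin libraries. BTG2, which slows proliferation and promotes RNA deadenylation, read 70.6, 74.9 and 68.1 FPKM in the controls and 103, 103 and 109 in the hairpin libraries. Each was higher in every hairpin library than in every control (log2 difference 0.61, SE 0.0829, limma adjusted p = 0.0230 for NR4A3, log2 difference 0.55, SE 0.0679, limma adjusted p = 0.0163 for BTG2). DUSP2 and DUSP5 encode nuclear phosphatases of MAP kinases. DUSP2 stood at 68.6, 82.5 and 73.4 FPKM in the controls and 113, 127 and 153 in the hairpin libraries. DUSP5 stood at 9.51, 8.73 and 9.09 FPKM in the controls and 13.7, 15.4 and 19.6 in the hairpin libraries. Again no hairpin library reached down to a control, and replicate 3 was the highest of both (log2 difference 0.79, SE 0.123, limma adjusted p = 0.0330 and log2 difference 0.76, SE 0.125, limma adjusted p = 0.0414). Of 19 tested immediate early genes 2 rose and 0 fell, 7 lay above all controls and 1 below, and the median log2 difference was 0.25. Of 8 genes of ERK feedback 2 rose and 0 fell, with a median of 0.18. Over all tested genes 0.899% rose and 0.325% fell, while 17% lay above all controls and 10.7% below. ZFP36, which destabilises cytokine RNAs, differed by 0.74 without passing (limma adjusted p = 0.0730), and the AP-1 subunit JUNB by 0.56 (0.196). Of the 5 calls named here for NAB2, NR4A3, BTG2, DUSP2 and DUSP5, 0 were kept whichever control was left out (limma adjusted p 0.0781 to 0.170) and 1 (BTG2) whichever hairpin library was (0.0197 to 0.0958).

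**Figure D3:**
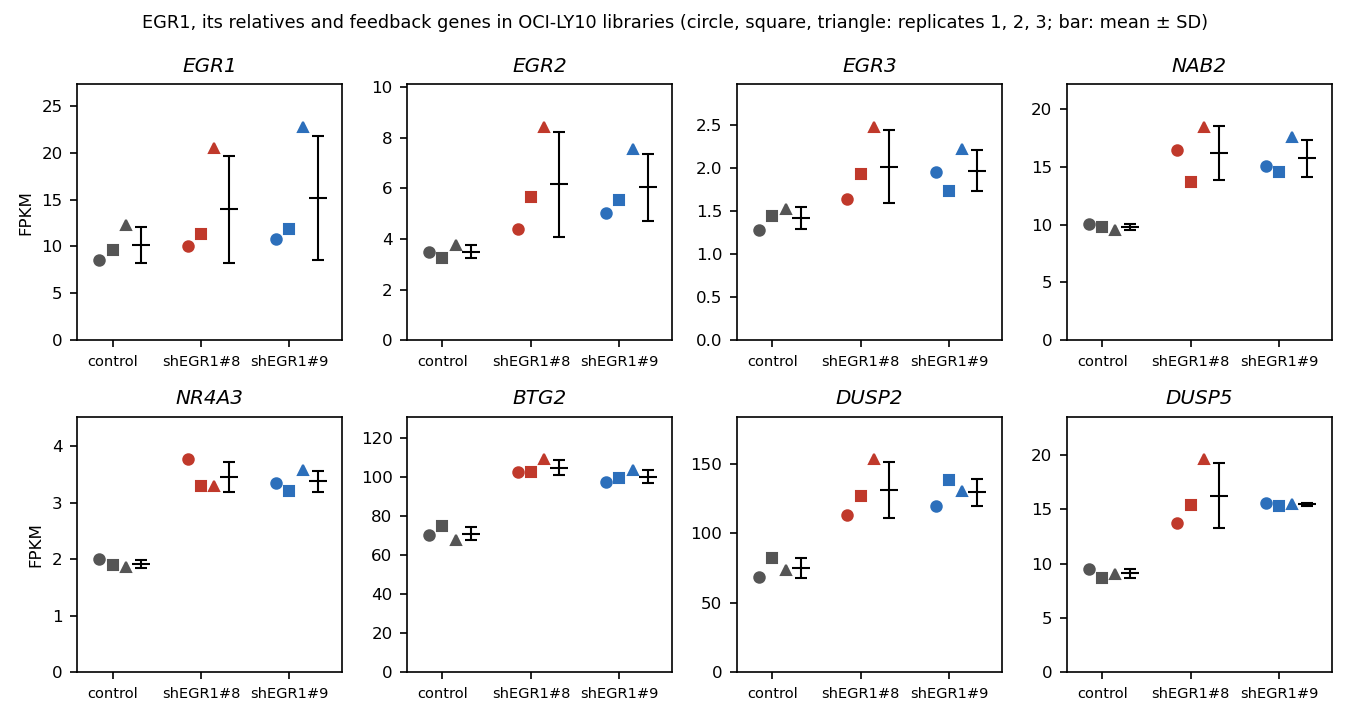
FPKM of 8 genes of the EGR1 circuit in each of 9 OCI-LY10 libraries, with circles, squares and triangles for replicates 1, 2 and 3 and bars for mean ± SD (n = 3). EGR1, EGR2 and EGR3 spread widely among the hairpin libraries with replicate 3 on top, and were not called; NAB2, NR4A3, BTG2, DUSP2 and DUSP5 sit above all 3 controls in every library labelled shEGR1#8.

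Of the gene lists, the interferon effectors held the most risers. The lists were chosen with earlier results of these data known, so their counts describe these genes and are no independent support. Over the 4 lists of sensors, factors, effectors and conjugation enzymes, 21 of 85 tested genes rose and 0 fell, 54 lay above all controls and 5 below, and the median log2 difference was 0.35. Among the 10366 tested genes outside these lists 73 rose and 34 fell, 1725 lay above all controls and 1115 below, and the median was 0.03. Of the 16 sensors of foreign nucleic acid and their adaptors 1 rose, ZBP1, which binds left-handed double helices (1.84, 1.93 and 2.07 FPKM in the controls and 4.36, 3.87 and 3.69 in the hairpin libraries). IFIH1, the MDA5 sensor of long double-stranded RNA, lay above all controls without passing (log2 difference 0.48, limma adjusted p = 0.0636). The median of the sensors was 0.26.

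Of 18 tested STAT and IRF factors with their regulators 5 rose and 0 fell (median 0.19). STAT2, which carries the interferon signal from the receptor, rose by 0.43 log2 units (limma adjusted p = 0.0373), and IRF9, its DNA-binding partner, by 0.56 (0.0272). IRF7, the factor that amplifies interferon production, was measured at 5.05, 5.42 and 3.71 FPKM in the controls and 11.8, 11.8 and 16.5 in the hairpin libraries. Every hairpin library lay far above the highest control (log2 difference 1.32, SE 0.165, limma adjusted p = 0.0169). USP18, which removes ISG15 from proteins and dampens the interferon receptor, read 4.90, 4.15 and 4.76 FPKM in the controls and 10.7, 8.75 and 11.7 in the hairpin libraries, again without overlap (log2 difference 1.02, SE 0.115, limma adjusted p = 0.0146). Of the 5 calls for ZBP1, STAT2, IRF7, IRF9 and USP18, 0 were kept whichever control was left out (limma adjusted p 0.0712 to 0.207) and 2 (ZBP1 and IRF7) whichever hairpin library was (0.0179 to 0.0831).

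Among 29 tested effectors of the IFIT, IFI and OAS kind 13 rose and 0 fell, 24 lay above all controls and 1 below, and the median log2 difference was 0.58. Promoters of 3 of them are shown because their response elements are well known and all 3 genes rose. They are the 200 bases before the RefSeq start in GRCh38.p14, written along the gene: IFI6 at chr1:27672193-27672392 on the minus strand, ISG15 at chr1:1013297-1013496 on the plus strand and IFIT1 at chr10:89392423-89392622 on the plus strand. Capitals mark matches to the core of the interferon-stimulated response element, spelled GAAA, any 2 bases and GAAA, which was searched on both strands. The pair in ISG15 overlap each other, and both in IFIT1 lie on the opposite strand and so read TTTC at either end.
IFI6: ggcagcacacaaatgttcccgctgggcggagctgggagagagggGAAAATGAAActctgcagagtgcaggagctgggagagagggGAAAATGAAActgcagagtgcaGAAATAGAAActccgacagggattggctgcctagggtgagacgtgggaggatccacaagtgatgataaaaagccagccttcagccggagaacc
ISG15: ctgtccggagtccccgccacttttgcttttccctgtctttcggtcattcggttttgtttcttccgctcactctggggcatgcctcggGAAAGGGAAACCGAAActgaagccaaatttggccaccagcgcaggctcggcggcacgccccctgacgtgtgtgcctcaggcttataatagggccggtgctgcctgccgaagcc
IFIT1: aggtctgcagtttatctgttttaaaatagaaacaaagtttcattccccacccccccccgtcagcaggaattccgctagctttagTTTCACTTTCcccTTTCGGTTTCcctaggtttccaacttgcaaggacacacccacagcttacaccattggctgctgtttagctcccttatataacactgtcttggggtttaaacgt
This core was found in 3.65% of all 27305 promoters of 300 bases and in 2.93% of those of tested genes, in 10 of 67 risers with a promoter (14.9%) and in 0 of 26 such fallers. The 10 were DDX60, EPSTI1, IFI44, IFI44L, IFI6, IFIT1, IFIT3, ISG15, MX1 and RTP4. Of the 24 tested effectors with a promoter 18 held it, a share of 75%, and 0 of the 24 held the EGR consensus.

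IFI6, a mitochondrial protein that opposes apoptosis and viral replication, read 20.4, 20.9 and 21.7 FPKM in the controls and 83.5, 50.3 and 88.8 in the hairpin libraries. The controls lay close together while the hairpin libraries spread widely, with replicate 2 the lowest and still far above any control (log2 difference 1.73, SE 0.200, limma adjusted p = 0.0147). ISG15, a ubiquitin-like protein joined to other proteins, read 60.1, 76.1 and 47.8 FPKM in the controls and 120.2, 145 and 166 in the hairpin libraries. Its controls scattered more than the hairpin libraries on the log2 scale, and all hairpin libraries were higher (log2 difference 1.23, SE 0.183, limma adjusted p = 0.0303). IFIT1 and its partner IFIT3 bind viral RNA. IFIT1 stood at 2.33, 2.64 and 2.28 FPKM in the controls and 9.56, 7.49 and 6.85 in the hairpin libraries. IFIT3 stood at 5.83, 6.69 and 7.35 FPKM in the controls and 17.4, 14.8 and 13.8 in the hairpin libraries. In both, replicate 1 of the hairpin libraries was the highest and no library overlapped the controls (log2 difference 1.38, SE 0.122, limma adjusted p = 0.00968 and log2 difference 1.10, SE 0.112, limma adjusted p = 0.0139). OAS1, which makes the activator of RNase L, differed by 0.41 and did not pass (limma adjusted p = 0.0538). Of 22 genes of ISG15 conjugation, the PARP9-DTX3L pair and the SP100 group 2 rose and 0 fell (median 0.32). They were UBE2L6, the conjugating enzyme for ISG15, with a log2 difference of 0.57 (limma adjusted p = 0.0447), and PARP10, a transferase of single ADP-ribose units, with 0.73 (0.0385). HERC6, a ubiquitin ligase of the same family as the human ISG15 ligase, missed the threshold (log2 difference 0.58, limma adjusted p = 0.0517). Instead of 13 effectors, 0, 1 and 2 were called without control replicate 1, 2 and 3, and 7, 10 and 15 without shEGR1#8 replicate 1, 2 and 3. For IFI6, ISG15, IFIT1, IFIT3, UBE2L6 and PARP10 the adjusted p ran from 0.0342 to 0.198 with 1 control left out and from 0.000587 to 0.0864 with 1 hairpin library left out, where IFIT1 and IFIT3 were called each time.

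The machinery that presents antigen to CD4+ T cells held further risers. Of 13 tested genes of MHC class II, 3 rose and 0 fell, 10 lay above all controls, and the median log2 difference was 0.57. Over all tested genes 0.899% rose and 17% lay above all controls. CD74, the invariant chain that guards the peptide groove, is an abundant RNA of this line and read 764, 689 and 661 FPKM in the controls and 1206, 1067 and 1491 in the hairpin libraries. All hairpin libraries lay above all controls, with replicate 3 the highest (log2 difference 0.82, SE 0.127, limma adjusted p = 0.0328). HLA-DQA1, the alpha chain of a class II molecule, read 18.4, 18.8 and 18.5 FPKM in the controls and 39.5, 34.9 and 41.2 in the hairpin libraries, and HLA-DQB1, its beta chain, 3.90, 4.04 and 3.61 FPKM in the controls and 6.78, 6.88 and 7.93 in the hairpin libraries. The groups were well apart (log2 difference 1.01, SE 0.0794, limma adjusted p = 0.00680 and log2 difference 0.76, SE 0.0865, limma adjusted p = 0.0146), but reads of both genes can be shared with near-identical copies, so their levels are uncertain. CIITA, the master regulator of class II transcription, lay above all controls and missed the threshold (log2 difference 0.54, limma adjusted p = 0.0518). Of 16 tested genes of MHC class I and its peptide supply 0 rose and 0 fell in limma, 2 at an unadjusted p under 0.05 against 18.8% of all tested genes, and the median was 0.11. HLA-B, uncertain for the same reason, differed by 0.67 (limma adjusted p = 0.107). Of the 3 class II calls, 0 were kept whichever control was left out (limma adjusted p 0.0342 to 0.154) and 2 (HLA-DQA1 and HLA-DQB1) whichever hairpin library was (0.00832 to 0.0813).

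Secreted factors and surface receptors through which B cells meet other cells were a further group of risers. IL4I1, a secreted oxidase that consumes phenylalanine and restrains T cells, read 4.16, 4.15 and 3.33 FPKM in the controls and 12.4, 13.3 and 14.7 in the hairpin libraries. The gap between the groups was wider than the spread of either (log2 difference 1.57, SE 0.102, limma adjusted p = 0.00505). CCL3, a chemokine released by B cells after receptor signalling, read 3.17, 3.07 and 3.36 FPKM in the controls and 7.59, 7.94 and 8.47 in the hairpin libraries. No hairpin library came near a control, and this gene and IL4I1 had, with WASF2, the smallest p of the comparison (log2 difference 1.10, SE 0.0767, limma adjusted p = 0.00505). CCL4, which is induced with CCL3, missed the threshold (log2 difference 0.62, limma adjusted p = 0.0518). IL2RG, the signalling chain shared by receptors for several interleukins, stood at 15.97, 15.8 and 14.7 FPKM in the controls and 34.2, 29.6 and 40.7 in the hairpin libraries, with no overlap (log2 difference 1.11, SE 0.117, limma adjusted p = 0.0139). CCR7, which guides lymphocytes to lymph nodes, rose by 0.56 log2 units (limma adjusted p = 0.0417), and CD40, the receptor for T-cell help, by 0.53 (0.0251). Of 24 chemokines, cytokines and receptors 5 rose and 0 fell (median 0.14). In the list of adhesion, costimulation and SLAM family genes 3 of 22 rose and 0 fell, with 14 above all controls and a median of 0.30. Over all tested genes 0.899% rose and 17% lay above all controls. SEMA7A, a membrane-anchored semaphorin that binds integrins, read 12.1, 11.3 and 16.03 FPKM in the controls and 28.6, 24.3 and 29.1 in the hairpin libraries, and control replicate 3 was the control nearest to the hairpin libraries (log2 difference 1.02, SE 0.137, limma adjusted p = 0.0218). CD70, the ligand of CD27, rose by 0.65 log2 units (limma adjusted p = 0.0218), and SLAMF7, a receptor that binds itself on neighbouring cells, by 0.51 (0.0296). Of the 8 calls named for these genes only IL4I1 and CCL3 were kept whichever control was left out, with an adjusted p of 0.0154 to 0.190 over the 8. With 1 hairpin library left out the range was 0.0111 to 0.0926, and IL4I1, CCL3 and IL2RG were kept each time.

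In 3 lists of signalling genes 1 of 25, 1 of 25 and 2 of 19 tested genes were called, beside 1.22% of all tested genes. In the NF-kB list 1 of 25 tested genes rose, NFKBIE, the inhibitor IkB-epsilon, which read 82.1, 82.3 and 78.1 FPKM in the controls and 122, 116 and 123 in the hairpin libraries. Its groups were each tight and far apart (log2 difference 0.57, SE 0.0624, limma adjusted p = 0.0139). NFKBIA, the inhibitor IkB-alpha, missed the threshold (log2 difference 0.38, limma adjusted p = 0.0518). Of 25 B-cell receptor chains and proximal kinases 0 rose and 1 fell, the SRC family kinase FYN, which read 4.82, 4.95 and 4.99 FPKM in the controls and 3.03, 2.73 and 3.06 in the hairpin libraries (log2 difference −0.59, SE 0.0760, limma adjusted p = 0.0183). CD79A, the signalling chain of the receptor, differed by 0.66 and missed the threshold (limma adjusted p = 0.0637). Of 19 inhibitory receptors and phosphatases 2 rose and 0 fell. LAIR1, an inhibitory receptor for collagen, read 11.2, 10.8 and 11.1 FPKM in the controls and 19.03, 17.02 and 20.3 in the hairpin libraries (log2 difference 0.72, SE 0.0817, limma adjusted p = 0.0146). PTPN6 encodes SHP-1, the phosphatase that such receptors recruit, and rose by 0.63 log2 units (limma adjusted p = 0.0316). LILRB4, an inhibitory immunoglobulin-like receptor, stood at 4.82, 4.68 and 5.31 FPKM in the controls and 10.9, 10.9 and 13.5 in the hairpin libraries, with no overlap (log2 difference 1.10, SE 0.102, limma adjusted p = 0.0117). The medians of the 3 lists were 0.19, 0.02 and 0.08. In limma 9 of 25, 9 of 25 and 5 of 19 genes had an unadjusted p under 0.05, against 18.8% of all tested genes. Above all controls lay 9, 7 and 4 genes and below them 1, 3 and 2, against 17% and 10.7% of all tested genes. Of the 5 calls for NFKBIE, FYN, LAIR1, PTPN6 and LILRB4, 0 were kept whichever control was left out (limma adjusted p 0.0413 to 0.160) and 3 (NFKBIE, LAIR1 and LILRB4) whichever hairpin library was (0.0111 to 0.0708).

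The other leading risers belong to no common group. TMED5, a cargo receptor between the endoplasmic reticulum and the Golgi, read 4.37, 6.48 and 5.05 FPKM in the controls and 19.8, 17.9 and 13.8 in the hairpin libraries. No hairpin library overlapped a control (log2 difference 1.53, SE 0.164, limma adjusted p = 0.0139). SLC16A3, which exports lactate, read 3.33, 3.60 and 2.72 FPKM in the controls and 6.28, 8.75 and 9.54 in the hairpin libraries (log2 difference 1.11, SE 0.154, limma adjusted p = 0.0245). SLC16A3 was the 1 riser among 30 genes of glycolysis and hypoxia (median 0.10), beside 0.899% of all tested genes. LOC400927 and LOC101927931 are named by number. LOC400927 read 0.544, 1.18 and 1.39 FPKM in the controls and 5.70, 4.81 and 5.57 in the hairpin libraries, with no overlap (log2 difference 1.66, SE 0.167, limma adjusted p = 0.0139). LOC101927931 read 7.34, 7.54 and 8.88 FPKM in the controls and 19.3, 14.3 and 26.97 in the hairpin libraries, with replicate 3 the highest (log2 difference 1.21, SE 0.204, limma adjusted p = 0.0447). Of these 4 calls, 0 were kept whichever control was left out (limma adjusted p 0.0297 to 0.186) and 2 (TMED5 and LOC400927) whichever hairpin library was (0.0147 to 0.102).

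The genes that fell include EXOC5 of vesicle transport and WASF2 and IQGAP1 of the actin skeleton. EXOC5, part of the exocyst complex that docks secretory vesicles at the plasma membrane, read 21.8, 24.3 and 22.6 FPKM in the controls and 9.997, 10.98 and 7.42 in the hairpin libraries. Replicate 3 was the lowest, and no hairpin library reached the lowest control (log2 difference −1.21, SE 0.134, limma adjusted p = 0.0142). Of 31 genes of the exocyst, SNARE and tethering kind it was the 1 that fell, beside 0.325% of all tested genes, and the median of the list was −0.01. SYPL1, a synaptophysin-like vesicle protein, was below all controls and missed the threshold (log2 difference −0.84, limma adjusted p = 0.0541). TAF9B, a paralog of the transcription initiation factor subunit TAF9, read 16.2, 17.5 and 17.8 FPKM in the controls and 9.40, 7.61 and 6.89 in the hairpin libraries (log2 difference −1.03, SE 0.112, limma adjusted p = 0.0139). Its near relative TAF9 read 59.5, 58.5 and 64.9 FPKM in the controls and 73.3, 55.3 and 65.1 in the hairpin libraries, which overlap. WASF2, the WAVE subunit that activates actin branching, read 51.5, 51.8 and 51.9 FPKM in the controls and 27.6, 28.6 and 27.9 in the hairpin libraries. Libraries of 1 group nearly coincided (log2 difference −0.86, SE 0.0600, limma adjusted p = 0.00505). IQGAP1, a scaffold that links actin, calmodulin and RAC1, read 70.2, 69.5 and 72.8 FPKM in the controls and 42.99, 44.6 and 37.8 in the hairpin libraries (log2 difference −0.75, SE 0.0797, limma adjusted p = 0.0139). WASF2 and IQGAP1 were the 2 that fell among 40 genes of WAVE and actin, 0 rose, and the list's median was 0.09. Of the 4 calls for EXOC5, TAF9B, WASF2 and IQGAP1, only WASF2 was kept whichever control was left out (adjusted p 0.0323 to 0.0885 over the 4 genes), and all 4 were kept whichever hairpin library was left out (0.0111 to 0.0431).

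PTMA, a very abundant and highly acidic nuclear protein that binds linker histones, read 2121, 2228 and 2211 FPKM in the controls and 1172, 1277 and 1242 in the hairpin libraries. The groups were far apart, with little spread in either (log2 difference −0.83, SE 0.0633, limma adjusted p = 0.00680). Of 25 tested genes of abundant chromatin proteins and linker histones it was the 1 that fell and 0 rose, while 9 lay below all controls, and the median was −0.13. Over all tested genes 0.325% fell and 10.7% lay below all controls. HIST1H1C, a linker histone, was below all controls without passing (log2 difference −0.52, limma adjusted p = 0.0533). UBR7, a UBR-box protein, read 22.9, 22.6 and 22.7 FPKM in the controls and 12.7, 13.5 and 10.9 in the hairpin libraries (log2 difference −0.83, SE 0.0876, limma adjusted p = 0.0139). RYK, a WNT receptor with an inactive kinase domain, read 13.2, 13.5 and 13.8 FPKM in the controls and 7.73, 8.81 and 7.22 in the hairpin libraries (log2 difference −0.70, SE 0.0851, limma adjusted p = 0.0163). C16orf87, a gene named by its position, read 26.1, 26.3 and 26.5 FPKM in the controls and 14.4, 18.1 and 13.6 in the hairpin libraries (log2 difference −0.75, SE 0.107, limma adjusted p = 0.0272). A further pair of fallers is uncertain because the genes share sequence with read-through transcripts. RAB43, a small GTPase of the Golgi, read 4.94, 4.79 and 2.21 FPKM in the controls and 0, 0.157 and 0.448 in the hairpin libraries (log2 difference −2.01, SE 0.257, limma adjusted p = 0.0176). The read-through ISY1-RAB43 read 0, 0 and 8.21 FPKM in the controls and 9.09, 6.20 and 0.781 in the hairpin libraries. C1QTNF3, a secreted protein of the C1q and TNF family, read 1.49, 2.93 and 2.49 FPKM in the controls and is listed at 0 in all 3 hairpin libraries, so no fold is given (limma adjusted p = 0.0139). Its read-through C1QTNF3-AMACR read 0.0932, 0 and 0 in the controls and 0.330, 1.02 and 0.632 in the hairpin libraries. Across the 6 libraries the read-through ISY1-RAB43 was highest in 2 hairpin libraries and control replicate 3. Of the 6 calls, only PTMA was kept whichever control was left out (adjusted p 0.0161 to 0.139 over the 6), and PTMA, UBR7 and C1QTNF3 whichever hairpin library was (0.0119 to 0.0737).

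Among regulators of the step from G1 to S phase, CDKN1A rose and SKP2 fell. CDKN1A, which encodes the CDK inhibitor p21, read 25.2, 23.3 and 21.7 FPKM in the controls and 47.3, 47.3 and 54.99 in the hairpin libraries. All 3 hairpin libraries were far above the controls, replicate 3 farthest (log2 difference 1.06, SE 0.0909, limma adjusted p = 0.00966). SKP2, an F-box protein through which the inhibitor p27 is degraded, read 11.4, 11.2 and 10.8 FPKM in the controls and 6.33, 6.71 and 4.72 in the hairpin libraries. Replicate 3 was again the lowest, and the groups were apart (log2 difference −0.82, SE 0.119, limma adjusted p = 0.0272). CDKN1B, the gene of p27, read 18.6, 16.9 and 15.2 FPKM in the controls and 16.7, 18.2 and 17.7 in the hairpin libraries, with overlapping groups (log2 difference 0.06, limma adjusted p = 0.755). CDKN1A and SKP2 were the 1 riser and the 1 faller among 32 cyclins, CDKs and inhibitors (median −0.06). Over all tested genes 0.899% rose and 0.325% fell. CCND2, cyclin D2, and E2F2, a driver of S phase genes, were below all controls without passing (log2 differences −0.32 and −0.36, limma adjusted p 0.0713 and 0.0695). NBN, the subunit that brings the MRE11 and RAD50 nuclease to broken DNA, read 20.3, 20.9 and 19.9 FPKM in the controls and 12.6, 12.1 and 8.85 in the hairpin libraries (log2 difference −0.82, SE 0.126, limma adjusted p = 0.0316), and was the 1 faller among 37 genes of DNA damage and repair (median −0.08). CDKN1A and BTG2 were the 2 risers among 21 p53 targets, whose median was −0.05. Of the 3 calls for CDKN1A, SKP2 and NBN, CDKN1A was kept whichever library was left out, while SKP2 and NBN were lost without any of the controls (adjusted p up to 0.163) and without shEGR1#8 replicate 1 (up to 0.0647 over the hairpin libraries left out), and NBN also without shEGR1#8 replicate 2.

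In limma 0 of 48 DNA replication genes and 0 of 41 mitosis genes were called, against 1.22% of all tested genes. At an unadjusted p under 0.05 were 13 and 6 of them, against 18.8% of all tested genes. Their differences were small and mostly downward. Of the replication genes 20 lay below all controls and 0 above, with a median of −0.10, and of the mitosis genes 11 below and 0 above, with a median of −0.11, beside 10.7% below and 17% above over all tested genes. PCNA, the sliding clamp of DNA polymerase, differed by −0.35 and TOP2A, the topoisomerase of dividing cells, by −0.38 (limma adjusted p 0.172 and 0.173). The proliferation marker MKI67 read 54.1, 59.1 and 62.3 FPKM in the controls and 54.6, 56.9 and 59.3 in the hairpin libraries, with overlapping groups (log2 difference −0.04, limma adjusted p = 0.814).

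MYC, the growth factor response gene that drives ribosome production, was measured at 91.4, 88.2 and 90.03 FPKM in the controls and 88.6, 83.1 and 104 in the hairpin libraries, and the groups overlapped (log2 difference 0.03, 95% interval −0.19 to 0.25, limma adjusted p = 0.889). In its network and among nucleolar genes 1 of 41 fell and 0 rose, with 13 below all controls and a median of −0.07. Over all tested genes 0.899% rose, 0.325% fell and 10.7% lay below all controls. The faller was MLX, the partner that carries glucose-sensing factors to DNA, which read 31.1, 33.6 and 35.4 FPKM in the controls and 22.02, 21.9 and 21.8 in the hairpin libraries (log2 difference −0.58, SE 0.0717, limma adjusted p = 0.0163). SCD, the desaturase that makes oleic acid, was the 1 faller among 28 sterol and fatty acid genes and read 112, 108 and 108 FPKM in the controls and 77.5, 83.5 and 74.9 in the hairpin libraries (log2 difference −0.47, SE 0.0676, limma adjusted p = 0.0272). Of 32 genes of the amino acid and endoplasmic reticulum stress responses 2 rose and 0 fell. DDIT4, an inhibitor of mTORC1 induced by stress, read 2.87, 2.55 and 2.41 FPKM in the controls and 4.90, 5.44 and 4.51 in the hairpin libraries (log2 difference 0.72, SE 0.0942, limma adjusted p = 0.0193), and HERPUD1, which helps degrade misfolded proteins, rose by 0.42 log2 units (limma adjusted p = 0.0361). CTH, an enzyme of cysteine synthesis, differed by −0.68 and the small heat shock gene HSPB1 by 1.32, and neither passed (limma adjusted p 0.0695 and 0.0609). Of the 4 calls for MLX, SCD, DDIT4 and HERPUD1, 0 were kept whichever control was left out (limma adjusted p 0.0885 to 0.190) and 0 whichever hairpin library was (0.0197 to 0.0740).

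Several lists held no call. As 1.22% of all tested genes were called, 0 calls in lists of this size is near that share. In limma 0 of 28 transcription factors of B-cell fate, 0 of 23 genes of the BCL2 family and apoptosis and 0 of 43 oxidative phosphorylation subunits were called. The same held for 0 of 23 heat shock genes, 0 of 14 genes of RNA interference and 0 of 73 ribosomal protein genes. In this order 8, 8, 3, 5, 2 and 10 had an unadjusted p under 0.05, against 18.8% of all tested genes. IRF4, a factor of activated B cells and plasma cells, differed by −0.13, and the survival gene BCL2 by 0.08 (limma adjusted p 0.289 and 0.543). MCL1, another survival gene, was split within its group. It stood at 83.1, 91.3 and 84.6 FPKM in the controls and 24.3, 93.4 and 26.9 in the hairpin libraries: replicates 1 and 3 were low and replicate 2 was level with the controls (log2 difference −1.11, limma adjusted p = 0.259). The 3 libraries labelled shEGR1#9 read 89.5, 88.9 and 82.4 FPKM.

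**Figure D4:**
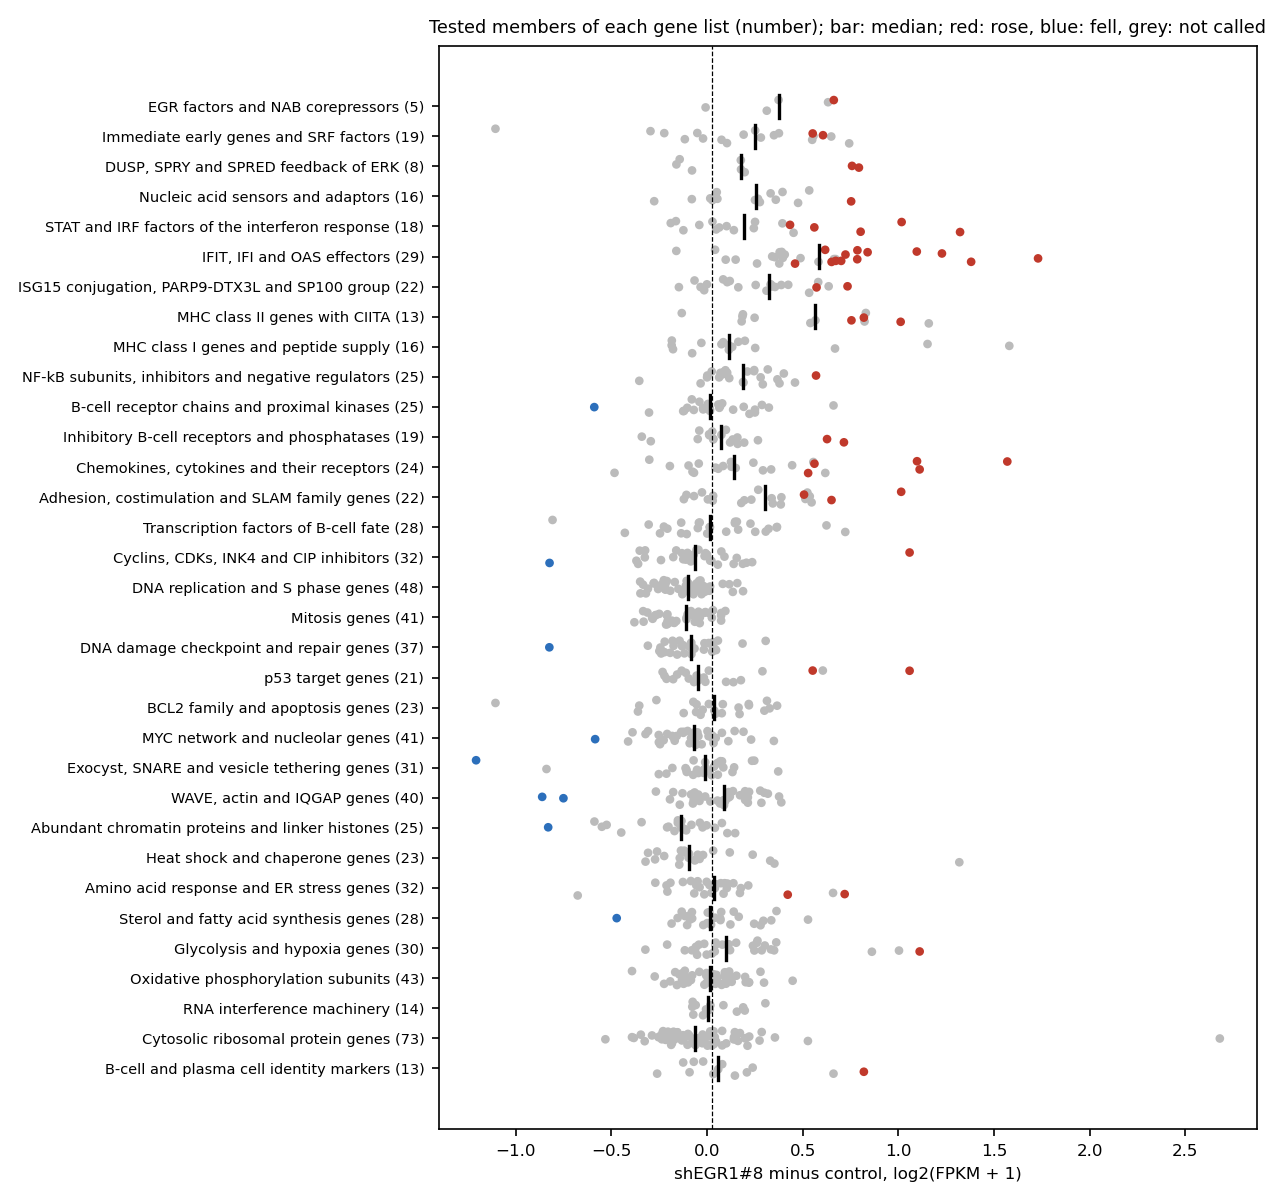
Every tested member of each gene list with 5 or more tested members, by its difference of libraries labelled shEGR1#8 from control on the log2(FPKM + 1) scale. Black bars are list medians, the dashed line is the median of all tested genes at 0.03, and red and blue points are called; the IFIT, IFI and OAS effectors and MHC class II genes lie to the right, with medians of 0.58 and 0.57, while replication and mitosis genes have medians of −0.10 and −0.11 with no call.

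The means of the libraries labelled shEGR1#9 can be set against those labelled shEGR1#8 without the control means. The controls still entered the filter and the estimate of scatter. In a limma fit of all 9 OCI-LY10 libraries 0 of 10612 genes (0%) differed between shEGR1#8 and shEGR1#9 at an adjusted p under 0.05 (lowest 1.00), and 267 (2.52%) had an unadjusted p under 0.05. Among the 128 genes called against control 15 did so. As the 128 were chosen by the same shEGR1#8 values, this count cannot be read against the 2.52%. Of these 15, DDIT4, SLC16A3, MX1 and OASL are given as examples chosen after their values were seen, and none passed the adjusted threshold. DDIT4 read 3.37, 3.64 and 3.38 FPKM with the label shEGR1#9, below the 4.90, 5.44 and 4.51 of shEGR1#8 (log2 difference 0.41, 95% interval 0.23 to 0.59). SLC16A3 read 4.97, 6.06 and 5.73 against 6.28, 8.75 and 9.54 (log2 difference 0.47, interval 0.14 to 0.79). MX1, an antiviral GTPase, read 129, 139 and 124 against 110.2, 114 and 103 (log2 difference −0.26, interval −0.41 to −0.11), and OASL, a relative of the OAS enzymes, differed by −0.31 (interval −0.50 to −0.13). For other genes the unadjusted 95% interval of the difference reflects only the scatter of these libraries, which may be technical. It ran from −0.47 to 0.46 for IFI6, from −0.30 to 0.19 for IL4I1, from −0.31 to 0.24 for EXOC5, from −0.17 to 0.16 for PTMA and from −0.80 to 0.60 for EGR1. TMED5 and LOC400927 were less even in the libraries labelled shEGR1#9, at 6.09, 16.1 and 15.8 and at 5.46, 1.33 and 4.99 FPKM. C1QTNF3, a leading faller that is also among the 15, read 1.68, 3.24 and 0 FPKM there, while shEGR1#8 replicates 1, 2 and 3 are all listed at 0. Leaving out shEGR1#8 replicate 1, 2 or 3 gave 9, 8 and 0 genes called between the hairpins, and leaving out shEGR1#9 replicate 1, 2 or 3 gave 1, 1 and 2.

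The same hairpin label occurs once each under TMD8 and SUDHL2, with 1 control each, so these values have no replicate check. Of the 34 fallers 32 reached 1 FPKM under the TMD8 label and 30 of these were lower with shEGR1#8, against 61% of 9593 genes (median log2 difference −0.82 beside −0.15). Under the SUDHL2 label 30 of 31 were lower, against 50.3% of 9534 genes (median −0.51). EXOC5 went from 21.9 to 4.88 FPKM under TMD8 and from 10.6 to 4.67 under SUDHL2, and TAF9B from 13.3 to 1.30 and from 4.65 to 1.90. PTMA went from 3432 to 1011 and from 2234 to 1269.85 FPKM. Of the 94 risers 65 of 91 measured were higher under TMD8, against 39% of all genes (median 0.37), and 84 of 90 under SUDHL2, against 49.7% (median 0.80). Of the 29 effectors of the IFIT, IFI and OAS kind 29 were higher under SUDHL2 and 27 under TMD8, with medians of 1.15 and 1.24. IFI6 went from 1.77 to 14.3 FPKM under TMD8 and from 35.2 to 95.7 under SUDHL2. IL4I1 went from 141 to 272 and from 27.0 to 249.9 FPKM. Of 7 class II genes that reached 1 FPKM, 1 was higher under TMD8 (median −0.21) and 6 of 7 under SUDHL2 (median 0.11). CD74, the class II riser of highest level, went from 887 to 766 FPKM under TMD8 and from 712 to 717 under SUDHL2. HLA-DQA1 went from 3.43 to 1.21 and from 0.677 to 1.26 FPKM. Short RNA genes took 36.3% of the FPKM in the TMD8 control and 61.5% in its shEGR1#8 library, against 54.4 and 53.5% under SUDHL2 and 0.472 to 0.613% in the 6 OCI-LY10 libraries, and their part in the TMD8 values was not tested.

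**Figure D5:**
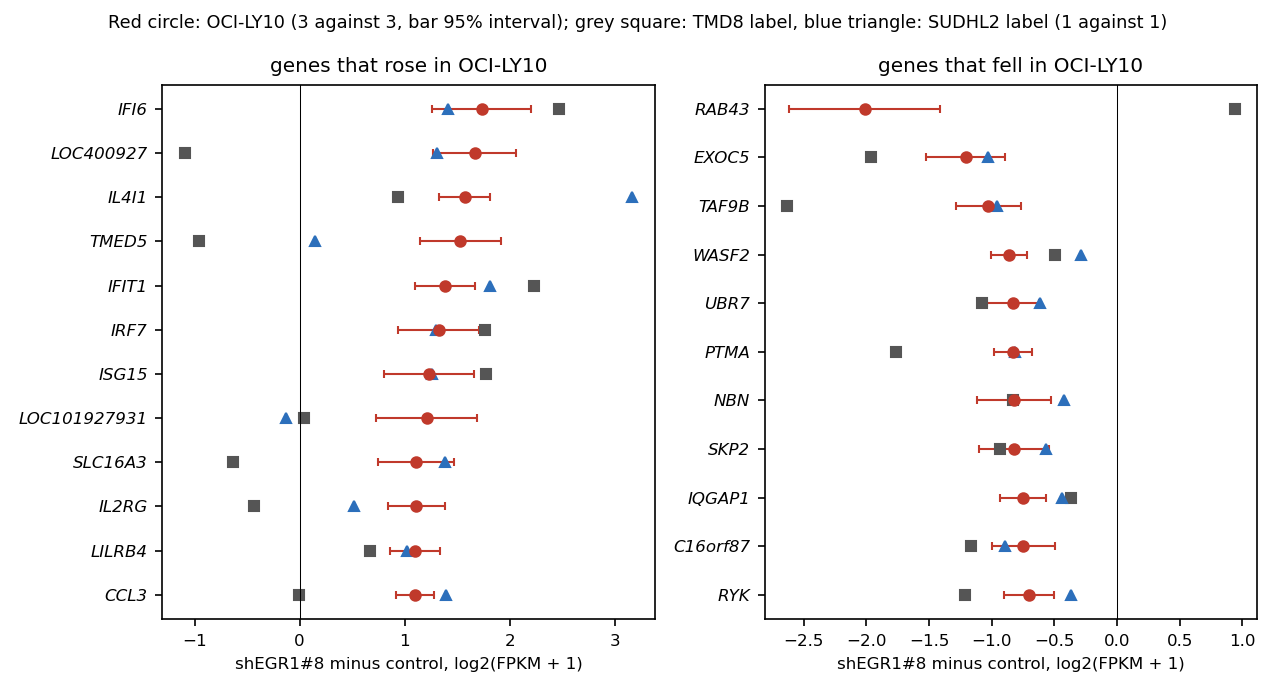
Differences of shEGR1#8 from control, as log2(FPKM + 1), for 12 leading risers and 11 leading fallers (C1QTNF3 left out), with OCI-LY10 as red circles and 95% intervals (n = 3 each) and the single libraries under TMD8 (grey squares) and SUDHL2 (blue triangles) where the gene reached 1 FPKM. Among the fallers only RAB43 lies on the other side of 0, while LOC400927, TMED5, SLC16A3 and IL2RG among the risers lie below 0 under TMD8, CCL3 at −0.00387, and LOC101927931 below 0 under SUDHL2.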

How the data were processed

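RNA levels came from the deposited tables of the 3 cell lines, whose values the authors gave per gene. The labels do not name the unit. From the values it was read as FPKM as deposited by the authors, with no read counts, so no count test was run and no counting interval is given. The submitters' processing notes list Bowtie2, HISAT, StringTie and hg19 with no roles or versions, and the labels name a TruSeq RNA library kit. Lines with a repeated gene name were left out, 4 for OCI-LY10, 10 for SUDHL2 and 10 for TMD8, with a further 430 damaged lines for SUDHL2. The 4 ChIP samples of the series were not analysed here.

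Genes with 1 FPKM or more in at least 3 of the 6 libraries were fitted as log2(FPKM + 1) with limma 3.58.1 and a mean trend (R 4.3.3), with p-values adjusted by Benjamini and Hochberg over all tested genes and a threshold of 0.05. shEGR1#8 was set against shEGR1#9 in a fit of all 9 libraries. In simulated data of 10451 genes, changes were planted only in genes with a mean log2(FPKM + 1) above 2. The first fit recovered 47% of those changed by 0.5 and 91% of those changed by 1 log2 unit, with 8.609% of calls false. For shEGR1#8 against shEGR1#9, over 10612 genes, these were 63%, 92% and 1.274%. The simulated noise was normal and independent between libraries, with 1 spread per gene. Recovery for lower genes, or with an outlying library such as shEGR1#8 replicate 3, was not tested. Named genes are the 12 largest changes each way, up to 4 called members of a list and key members of the lists. A gene that this rule names is not reported here. Of the key members that were not called, those printed were chosen after their values were seen. The members and the 37 gene lists were chosen with earlier results of these data known. Alternatives were the pseudocount, the filter, 2 other scalings, library weights, a replicate block, a fit of all 9 libraries and each library left out. Promoters are RefSeq sequences of GRCh38.p14, matched by symbol for 7740 of the tested genes. Python 3.11.15, pandas 2.3.3 and matplotlib 3.10.9 made the tables and plots.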

Additional observations from a re-analysis of the deposited data

Results flagged for a closer look

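Of the 12 leading risers and 12 leading fallers of OCI-LY10, 7 had a difference of the opposite sign where they reached 1 FPKM under the TMD8 or SUDHL2 label. Over all called genes so measured, 26 of 91 risers were lower and 2 of 32 fallers higher under TMD8, and 6 of 90 risers lower and 1 of 31 fallers higher under SUDHL2. With 1 library a group there, the difference between the cell lines was not tested. Among the risers, LOC400927 differed by −1.09, TMED5 by −0.95, SLC16A3 by −0.63 and IL2RG by −0.43 log2 units under TMD8. CCL3 differed by −0.00387 there, from 4.12 to 4.11 FPKM. LOC101927931 differed by −0.13 under SUDHL2. Among the fallers, RAB43, whose reads can be shared with a read-through gene, differed by 0.94 under TMD8.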

How the results depend on the processing

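Direction held for all 128 called genes in the 14 settings tried. Where a library was left out this was fixed beforehand, since the groups of these genes do not overlap. Of the 128 genes 71 were called in each of the 7 settings that left out no library and used no replicate block. Against 94 risers and 34 fallers, library weights gave 366 and 139 and the fit of all 9 libraries 394 and 172. Leaving out 1 library at a time gave 4 to 164 risers and 3 to 76 fallers, and 0 to 9 genes between shEGR1#8 and shEGR1#9 instead of 0. The cause was not tested. With the replicate number as a block, limma called 0 risers and 0 fallers (lowest adjusted p 0.0636, 1520 genes at an unadjusted p under 0.05). Deviations from the group mean correlated at −0.0971, 0.075 and −0.183 for same-numbered libraries and at −0.112 to 0.188 for the others. With 3 libraries a group, these values cannot settle whether the numbers pair libraries, and the labels do not say. The other filters, pseudocount and scalings gave 68 to 96 risers and 28 to 42 fallers, and median-ratio scaling moved the median of all genes from 0.03 to −0.01 and the share of calls that rose from 73.4 to 65.5%. Of genes that were not called, MYC turned to −0.0112 with median-ratio scaling and −0.0651 with library weights. With 1 library left out MYC ran from −0.0668 to 0.0971, MKI67 from −0.0912 to 0.00879 and CDKN1B from −0.0126 to 0.126, with the change of sign without shEGR1#8 replicate 3 for MYC and without control replicate 3 for MKI67 and CDKN1B. No read depth is given, so counting error at low FPKM is unknown.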
